A study of Mus musculus with 6 samples.

Results

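The genes described here are 34 genes of the NRF2, glutathione and thioredoxin antioxidant system. They were taken by symbol from what their products are known to do, at a time when earlier results of these data were known. All 34 were found among the 35602 genes of the count table and in the tables of the remaining pair of libraries. Sorted CD4+ T cells from mouse spleen were activated with antibodies against CD3 and CD28 and received either DMSO, the solvent, or MAPK13-IN-1, a compound sold as an inhibitor of the kinase encoded by *Mapk13*, before RNA sequencing after 72 h. Each group had 3 libraries, from wild-type mice where the labels give a genotype (replicates 2 and 3). For those replicates the labels place the compound, at 17.1 µM, or DMSO in serum-supplemented culture medium after day 1 of stimulation, whereas the series design has it present during the 72 h. The replicate 1 pair has no dose or time of addition in its labels. The labels do not say that replicates came from separate cultures or animals, so p-values measure only the spread between these libraries, which may be technical.

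The libraries came from a pair of preparations. Replicates 2 and 3 of both groups were made with poly-T beads and no stated strand marking, and were deposited as counts of 26874805 and 28487403 in DMSO and 33854760 and 32617702 with MAPK13-IN-1. A stranded kit was used for the replicate 1 pair, whose deposited values are read here as FPKM (fragments relative to gene length and library size), since the unit is named nowhere and was taken from the values themselves. Its depth is unknown and it has 1 library a group, so it is given as values with no test. The 2 treated and 2 solvent libraries of the count table were tested by edgeR's quasi-likelihood method, with Benjamini-Hochberg adjustment over all 16269 genes that passed the filter on low counts, and a gene was called at an adjusted p under 0.05. Levels are CPM, counts relative to library size after TMM scaling, which sets libraries to a common scale by the bulk of their genes.

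NRF2, encoded by *Nfe2l2*, is a transcription factor that KEAP1 holds for degradation until oxidants or electrophiles modify KEAP1, after which NRF2 pairs with small MAF proteins at antioxidant response elements and raises genes for glutathione synthesis, thioredoxin recycling and detoxification. Glutathione and thioredoxin are parallel thiol systems, both recharged with NADPH, that reduce peroxides through glutathione peroxidases and peroxiredoxins. In T cells, activation raises the production of oxidants, and glutathione is known to be needed for the metabolic growth that follows activation.

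Markers of T cells were present in all 6 libraries. The 8 T cell markers found in the count table, of 10 listed, summed to 1587 and 1608 CPM in DMSO and to 945 and 1049 CPM with MAPK13-IN-1, and 7 of the 8 were lower, where 32.3% of all genes tested were. For each set of markers, the gene with the highest mean CPM over the 4 libraries is named, which ranks reads and not levels per length. *Cd5*, which had this place through its DMSO libraries, fell from 426 and 439 CPM to 154 and 200.1 CPM. *Cd4* itself, named outside the rule after its values were seen, stood at 275 and 276 CPM in DMSO and 267 and 283 CPM with MAPK13-IN-1. The same markers of the replicate 1 pair summed to 1278 FPKM in DMSO and 1178 FPKM with MAPK13-IN-1. T cell markers were thus detected in every library, which does not show the share of T cells in it, and CD8 T cell markers were low. *Cd8a* and *Cd8b1*, the latter with the higher CPM, summed to 11.7 and 10.9 CPM in DMSO and 5.49 and 7.85 CPM with MAPK13-IN-1, and to 3.49 and 8.39 FPKM in the replicate 1 pair, and both were lower in the test.

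Markers of other cells moved with the treatment. The 10 B cell markers, with *Pax5* highest in mean CPM, summed to 1141 and 1115 CPM in DMSO and to 1325 and 1345 CPM with MAPK13-IN-1, and 7 were higher and 2 lower, where 31.5% and 32.3% of all genes tested were. In replicates 2 and 3 these sums were below those of the T cell markers in DMSO and above them with MAPK13-IN-1. That order ranks reads of different genes and not levels per length. In the replicate 1 pair the B cell marker sums were 53.1 FPKM in DMSO and 37.6 FPKM with MAPK13-IN-1. Dendritic cell markers, with *Zbtb46* highest in mean CPM, summed to 19.2 and 19.5 CPM in DMSO and 59.0 and 49.2 CPM with MAPK13-IN-1, with 4 of 4 tested genes higher, and to 3.36 and 14.6 FPKM in the replicate 1 pair. Macrophage markers, with *Cd68* highest in mean CPM, summed to 12.5 and 10.96 CPM in DMSO and 40.7 and 33.4 CPM with the compound, with 5 of 6 tested higher, while *Mrc1* was at 0 counts in both DMSO libraries and at 9 and 7 counts with it. Their sum was 3.05 FPKM in DMSO and 11.3 FPKM with MAPK13-IN-1 in the replicate 1 pair. Erythroid markers, with *Hbb-bs*, a globin that also has near-identical copies, highest in mean CPM, summed to 7.83 and 7.54 CPM in DMSO and 90.2 and 64.7 CPM with MAPK13-IN-1, with 6 of 7 tested higher, and to 0.931 and 1.94 FPKM in the replicate 1 pair.

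Plasma cell markers, with *Mzb1* highest in mean CPM, summed to 161 and 145 CPM in DMSO and 207 and 219 CPM with MAPK13-IN-1 (3 of 4 tested higher, 1 lower), with *Tnfrsf17* at most at 2 counts in each library, and to 23.3 and 17.5 FPKM in the replicate 1 pair. Neutrophil markers stayed at or under 1.18 CPM in sum and 0.757 FPKM, with *S100a9* at 0 counts in all 4 libraries, and *Mpo*, the 1 gene tested, higher, at 2 and 2 counts in DMSO and 17 and 16 counts with MAPK13-IN-1. NK cell markers summed to at most 2.28 CPM, or 4.40 FPKM in the replicate 1 pair, and *Eomes*, the 1 gene tested, was not called. What part these cells play in the values of the antioxidant genes was not tested, and in bulk RNA fewer cells of a type and less RNA per cell cannot be told apart.

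With MAPK13-IN-1 the antioxidant genes moved in both directions. Of the 34 genes, 33 passed the filter on low counts, and among those 8 were lower and 11 higher, where 32.3% of all genes tested were lower and 31.5% were higher. Falls of more than 2-fold were seen for *Srxn1*, *Gsto1* and *Gpx4* (3 genes, against 10.4% of all genes tested), and rises of more than 2-fold for *Osgin1*, *Cat* and *Glrx* (3 genes, against 13.0%). The shares called are near those of all genes, and the median log2 fold change was 0.075 over the 33 members and 0.012 over all genes tested. CPM of the groups did not overlap for 28 of the 33 members, against 83.0% of all genes tested.

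These directions are relative to the bulk of genes. When libraries were scaled by their totals alone, the median of all genes tested moved from 0.012 to 0.14 on the log2 scale, and 6 members were lower and 16 higher, beside 4302 lower and 6176 higher among all genes. The falls of *Txn2* and *Prdx5* were then no longer called, and *Nfe2l2*, *Txn1*, *Prdx1*, *Prdx3* and *Gstp1* were called higher. The values of *Keap1*, *Txnrd1*, *Prdx2* and *Nqo1*, none of them called in either fit, changed from below to above 0. The fall of *Gpx4* was −0.97 there, just under 2-fold.

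**Figure D1:**
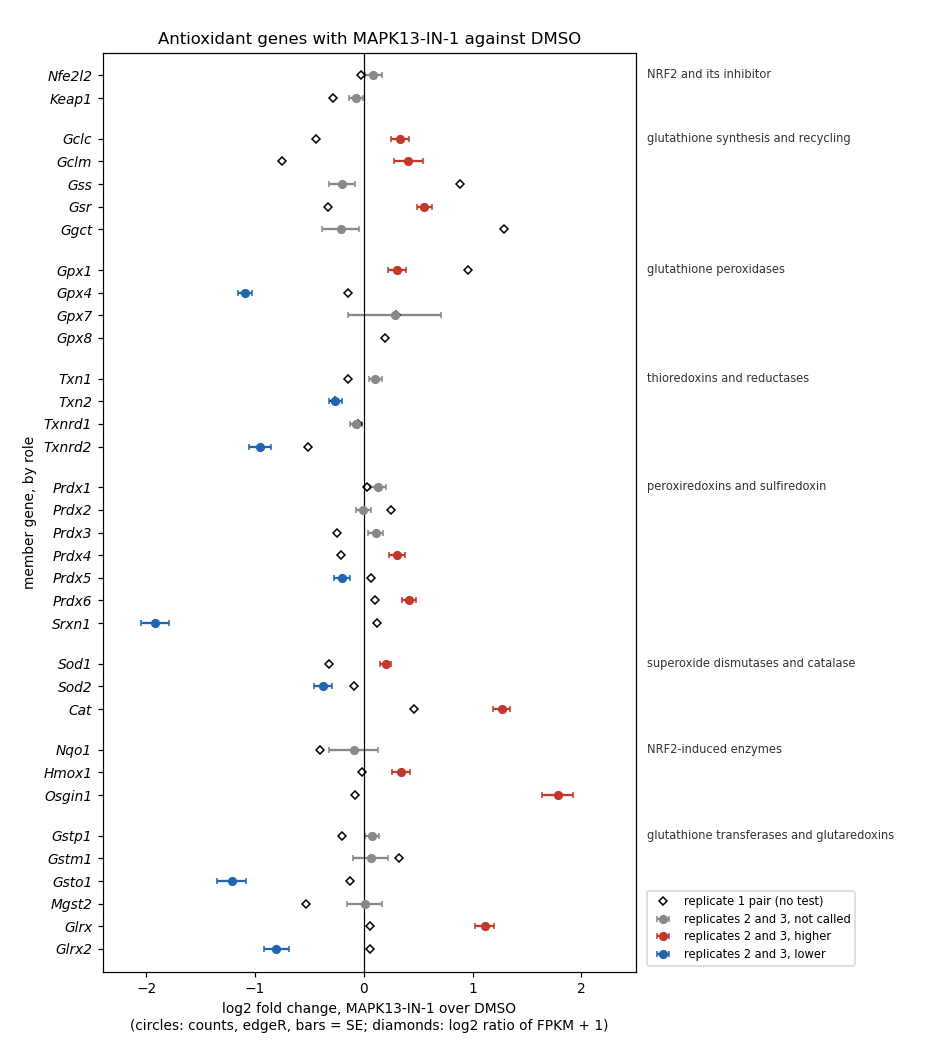
Log2 fold change of each antioxidant gene with MAPK13-IN-1 over DMSO, grouped by role: circles are edgeR fits to the counts of replicates 2 and 3 with SE bars, coloured by call, and open diamonds are log2 ratios of FPKM + 1 in the replicate 1 pair, which has no test. The fitted values run from −1.92 for *Srxn1* to 1.78 for *Osgin1*, and *Gpx8* has no circle because its counts were too low to test.

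The regulator pair was not called. *Nfe2l2* (NRF2) stood at 46.4 and 44.0 CPM in DMSO replicates 2 and 3 and at 49.3 and 46.8 CPM in the MAPK13-IN-1 libraries, a log2 fold change of 0.088 ± 0.076 (SE) with an edgeR adjusted p of 0.328. *Keap1*, the adaptor that presents NRF2 to a ubiquitin ligase, stood at 104 and 106 CPM in DMSO and 96.9 and 103 CPM with MAPK13-IN-1 (log2 fold change −0.074 ± 0.062 (SE), edgeR adjusted p = 0.315). For both genes the groups lay close to each other, the lowest value of one next to the highest of the other, without overlapping. With single libraries left out, *Nfe2l2* ran from 0.042 to 0.12 and *Keap1* from −0.12 to −0.034, with no call. The replicate 1 pair had *Nfe2l2* at 18.6 FPKM in DMSO and 18.2 FPKM with MAPK13-IN-1, and *Keap1* at 20.8 and 16.9 FPKM. These are transcript levels, and the amount of NRF2 protein, which KEAP1 sets, was not measured in these libraries.

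Of the 5 genes of glutathione synthesis and recycling, 3 rose and 2 were not called, with a median of 0.33, where 31.5% of all genes tested were higher. *Gclc*, the catalytic subunit of glutamate-cysteine ligase, which makes the rate-limiting step of glutathione synthesis, stood at 54.5 and 57.8 CPM in DMSO and 75.9 and 65.1 CPM with MAPK13-IN-1. Its log2 fold change was 0.33 ± 0.084 (SE) with an edgeR adjusted p of 0.00596. *Gclm*, the modifier subunit of the same ligase, stood at 22.8 and 23.9 CPM in DMSO and 35.8 and 26.2 CPM with MAPK13-IN-1, a log2 fold change of 0.41 ± 0.13 (SE) (edgeR adjusted p = 0.021). For both subunits each MAPK13-IN-1 library was above each DMSO library, and MAPK13-IN-1 replicate 2 was the higher of its group. Without that library the value of *Gclm* was 0.17 and no longer called, and that of *Gclc* was 0.21 and called.

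*Gsr*, glutathione reductase, which returns oxidised glutathione to its reduced form with NADPH, rose from 55.4 and 58.3 CPM to 84.5 and 82.8 CPM. Each treated library was above each DMSO library by far more than the spread of either group (log2 fold change 0.56 ± 0.067 (SE), edgeR adjusted p = 3.97e-05). *Gss*, glutathione synthetase, which completes the tripeptide, stood at 31.1 and 30.7 CPM in DMSO and 23.4 and 30.5 CPM with MAPK13-IN-1. The MAPK13-IN-1 libraries differed from each other more than replicate 3 differed from DMSO, and the gene was not called (log2 fold change −0.20 ± 0.12 (SE), edgeR adjusted p = 0.165). Without MAPK13-IN-1 replicate 3 it was called lower at −0.41, and without MAPK13-IN-1 replicate 2 its value was −0.021. *Ggct*, a cyclotransferase that acts on gamma-glutamyl amino acids, was at 4.58 and 4.85 CPM in DMSO and 3.94 and 4.19 CPM with MAPK13-IN-1, with no call (edgeR adjusted p = 0.298).

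The replicate 1 pair ran the other way for this role. *Gclc* was at 19.9 FPKM in DMSO and 14.5 FPKM with MAPK13-IN-1, *Gclm* at 16.3 and 9.25 FPKM and *Gsr* at 25.7 and 20.3 FPKM. All 3 genes called higher in replicates 2 and 3 were thus lower in this pair, with log2 ratios of −0.44, −0.75 and −0.33. *Gss* was at 9.73 FPKM in DMSO and 18.9 FPKM with MAPK13-IN-1 and *Ggct* at 5.51 and 14.9 FPKM, so the pair not called in the counts was higher here. No library of this pair has a replicate, and its preparation, timing and culture cannot be told apart as sources of the difference from replicates 2 and 3.

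The glutathione peroxidases parted. *Gpx4*, which reduces lipid hydroperoxides in membranes and guards against ferroptosis, stood at 218 and 225 CPM in DMSO and 98.0 and 109.7 CPM with MAPK13-IN-1. Both treated libraries were close to each other and far below the DMSO libraries (log2 fold change −1.09 ± 0.067 (SE), edgeR adjusted p = 4.2e-07). *Gpx1*, the abundant soluble enzyme that reduces hydrogen peroxide, was at 123 and 123 CPM in DMSO and 166 and 138 CPM with MAPK13-IN-1 and rose by 0.30 ± 0.082 (SE) on the log2 scale (edgeR adjusted p = 0.00803). Its MAPK13-IN-1 replicate 2 was well above replicate 3, which was itself above both DMSO libraries, and without replicate 2 the rise was 0.16. The replicate 1 pair had *Gpx1* at 92.2 FPKM in DMSO and 180.5 FPKM with MAPK13-IN-1, and *Gpx4* was at 171 and 154 FPKM. *Gpx7*, a peroxidase of the endoplasmic reticulum, was near the limit of the data at 13 and 40 counts in DMSO and 41 and 43 counts with MAPK13-IN-1. Its DMSO replicate 2 stood below the remaining libraries, and without DMSO replicate 3 the gene was called higher at 1.25, while without DMSO replicate 2 its value was −0.29. *Gpx8*, a related enzyme of the same compartment, had 3 and 6 counts in DMSO and 0 in both MAPK13-IN-1 libraries and was not tested.

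The thioredoxins and their reductases split by compartment. *Txn1*, cytosolic thioredoxin, stood at 185 and 179.6 CPM in DMSO and 202 and 189.9 CPM with MAPK13-IN-1 and was not called (log2 fold change 0.11 ± 0.058 (SE), edgeR adjusted p = 0.134). *Txnrd1*, the cytosolic reductase that recharges it with NADPH, was at 209.6 and 206 CPM in DMSO and 194 and 202 CPM with MAPK13-IN-1 (−0.069 ± 0.055 (SE), edgeR adjusted p = 0.292). For both, the groups lay next to each other with a gap narrower than the spread within the MAPK13-IN-1 group, and without MAPK13-IN-1 replicate 3 both were called, at 0.14 and −0.10, while without MAPK13-IN-1 replicate 2 neither was, at 0.060 and −0.040. *Txn2*, mitochondrial thioredoxin, fell from 117 and 116 CPM in DMSO to 97.9 and 96.3 CPM (log2 fold change −0.26 ± 0.059 (SE), edgeR adjusted p = 0.00285), a difference not called with libraries scaled by their totals (−0.14). *Txnrd2*, the mitochondrial reductase, fell from 29.1 and 29.9 CPM in DMSO to 14.5 and 16.0 CPM. The treated libraries were far below both DMSO libraries (log2 fold change −0.95 ± 0.10 (SE), edgeR adjusted p = 1.41e-05), and in the replicate 1 pair the gene was also lower, at 12.5 FPKM in DMSO and 8.45 FPKM with MAPK13-IN-1.

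Among the peroxiredoxins, thiol enzymes that reduce peroxides and are recharged mostly by thioredoxin, the changes were small. *Prdx6*, which uses glutathione in place of thioredoxin, stood at 77.6 and 81.0 CPM in DMSO and 108 and 103 CPM with MAPK13-IN-1 and rose by 0.41 ± 0.064 (SE) on the log2 scale (edgeR adjusted p = 0.000239). *Prdx4*, the form of the secretory pathway, rose from 37.5 and 37.4 CPM to 45.5 and 47.2 CPM (0.31 ± 0.076 (SE), edgeR adjusted p = 0.0048), but was no longer called without DMSO replicate 2 (0.30) or without DMSO replicate 3 (0.30). In both genes the treated libraries were above both DMSO libraries. *Prdx5*, found in mitochondria and elsewhere, fell from 116 and 107 CPM to 91.9 and 102 CPM (−0.20 ± 0.072 (SE), edgeR adjusted p = 0.0298). Its call was lost in 5 of the 11 alternative settings, among them without DMSO replicate 2 (−0.16), and its value was −0.13 without MAPK13-IN-1 replicate 2. *Prdx1*, *Prdx2* and *Prdx3*, forms of the cytosol, of red cells and cytosol, and of mitochondria, had log2 fold changes of 0.13, −0.0041 and 0.11 and were not called, although *Prdx1* was called higher without MAPK13-IN-1 replicate 3 (0.21) and was at 0.032 without MAPK13-IN-1 replicate 2.

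*Srxn1*, sulfiredoxin, which repairs overoxidised peroxiredoxins and is a known NRF2 target, had the largest fall among the members. It stood at 20.05 and 21.5 CPM in DMSO and 5.95 and 4.99 CPM with MAPK13-IN-1. Both treated libraries were far below either DMSO library, so the groups were widely apart. The log2 fold change was −1.92 ± 0.13 (SE) with an edgeR adjusted p of 7.35e-07. It was not lower in the replicate 1 pair, at 15.9 FPKM in DMSO and 17.3 FPKM with MAPK13-IN-1.

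The superoxide dismutases and catalase make up 3 of the members. *Cat*, catalase, which breaks down hydrogen peroxide in peroxisomes, stood at 51.1 and 49.8 CPM in DMSO and 129.8 and 113 CPM with MAPK13-IN-1. The DMSO libraries were nearly equal and both treated libraries were more than 2-fold above them (log2 fold change 1.27 ± 0.078 (SE), edgeR adjusted p = 4.2e-07). Its level was also higher in the replicate 1 pair, at 14.3 FPKM in DMSO and 20.1 FPKM with MAPK13-IN-1. *Sod1*, the cytosolic copper-zinc superoxide dismutase, rose from 278 and 287 CPM to 329.6 and 319.7 CPM (0.20 ± 0.052 (SE), edgeR adjusted p = 0.00663), without a call when DMSO replicate 2 (0.17) or DMSO replicate 3 (0.21) was left out. Within the replicate 1 pair *Sod1* was lower with MAPK13-IN-1, at 441 FPKM in DMSO and 352 FPKM. *Sod2*, the manganese enzyme of the mitochondrial matrix, stood at 47.7 and 48.5 CPM in DMSO and 35.0 and 39.3 CPM with MAPK13-IN-1. Both treated libraries were below both DMSO libraries (log2 fold change −0.37 ± 0.083 (SE), edgeR adjusted p = 0.00257), and the replicate 1 pair was at 12.1 and 11.3 FPKM.

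Of the 3 genes listed as NRF2-induced enzymes, 2 were higher and 1 was not called, where 31.5% of all genes tested were higher. *Nqo1*, a quinone reductase and the usual reporter of NRF2 activity, was low at 73 and 62 counts in DMSO and 83 and 83 counts with MAPK13-IN-1. On the CPM scale its groups overlapped, at 2.83 and 2.28 in DMSO and 2.34 and 2.45 with MAPK13-IN-1 (−0.092 ± 0.23 (SE), edgeR adjusted p = 0.736). *Hmox1*, heme oxygenase, which opens the heme ring and is also held down by BACH1, rose from 60.0 and 61.8 CPM to 82.4 and 72.0 CPM (0.34 ± 0.079 (SE), edgeR adjusted p = 0.00317), and the replicate 1 pair was nearly level at 12.2 and 12.03 FPKM. *Osgin1*, an oxidative stress induced growth inhibitor, had the largest rise among the members, from 6.48 and 7.43 CPM in DMSO to 26.6 and 21.2 CPM with MAPK13-IN-1. Every treated library was more than 2-fold above every DMSO library (log2 fold change 1.78 ± 0.14 (SE), edgeR adjusted p = 2.24e-06). In the replicate 1 pair *Osgin1* was under 1 FPKM in both libraries, at 0.686 in DMSO and 0.598 with MAPK13-IN-1. Among the members in replicates 2 and 3, *Osgin1* thus rose by most and *Srxn1*, listed with the peroxiredoxins, fell by most. *Nqo1*, whose few counts limit what can be said of a small change, was not called. These genes share NRF2 as a known regulator. The replicate 1 pair had the opposite sign for *Osgin1* and *Srxn1*, with log2 ratios of −0.078 and 0.12.

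Glutathione transferases attach glutathione to reactive compounds, and glutaredoxins use it to undo mixed disulfides on proteins. *Gsto1*, the omega transferase, which also reduces small thiols, fell from 17.1 and 19.8 CPM in DMSO to 7.24 and 8.68 CPM with MAPK13-IN-1. Both treated libraries were below both DMSO libraries by more than the spread within a group (log2 fold change −1.21 ± 0.13 (SE), edgeR adjusted p = 2.28e-05), while the replicate 1 pair was at 28.7 FPKM in DMSO and 26.2 FPKM. *Glrx*, cytosolic glutaredoxin, stood at 20.5 and 21.5 CPM in DMSO and 46.9 and 43.9 CPM with MAPK13-IN-1. Both treated libraries were about 2-fold above both DMSO libraries (log2 fold change 1.11 ± 0.086 (SE), edgeR adjusted p = 1.93e-06). *Glrx2*, the mitochondrial glutaredoxin, stood at 17.0 and 17.2 CPM in DMSO and 9.41 and 10.2 CPM with MAPK13-IN-1 and fell, again with no overlap (−0.80 ± 0.11 (SE), edgeR adjusted p = 0.00012). The replicate 1 pair was nearly level for both glutaredoxins, with log2 ratios of 0.057 for *Glrx* and 0.052 for *Glrx2*. *Gstp1*, *Gstm1* and *Mgst2*, of the pi, mu and microsomal classes, had log2 fold changes of 0.075, 0.063 and 0.0066 and were not called.

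**Figure D2:**
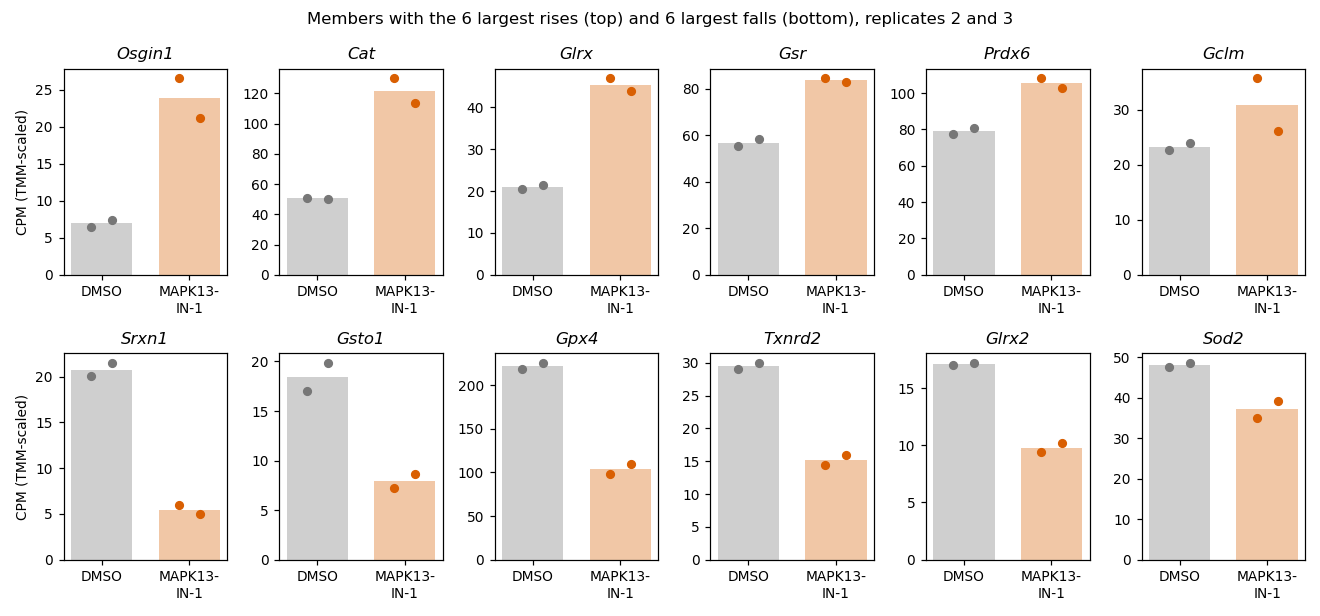
Level in CPM of the members with the 6 largest rises (top) and the 6 largest falls (bottom) among those called, where points are the libraries of replicates 2 and 3 and bars are group means. In each panel the groups do not overlap, as for *Osgin1* at 6.48 and 7.43 CPM in DMSO and 26.6 and 21.2 CPM with MAPK13-IN-1, and the treated libraries of *Gclm* stand apart from each other, at 35.8 and 26.2 CPM.

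A grouping by compartment was made after these values were seen and carries no test. Of the 6 members taken here as mitochondrial forms (*Txn2*, *Txnrd2*, *Prdx3*, *Prdx5*, *Sod2* and *Glrx2*), 5 were lower, 0 higher and 1, *Prdx3*, not called, with a median of −0.32, where 32.3% of all genes tested were lower. With libraries scaled by their totals, 3 of the 6 were lower and 1, *Prdx3* (0.23), higher. Of the remaining 27 members tested, 3 were lower and 11 higher, where 31.5% of all genes tested were higher, with a median of 0.11, and some of them, such as *Gpx1*, *Gpx4* and *Gsr*, have products known to reach mitochondria too. Without MAPK13-IN-1 replicate 3 these were 5 lower and 13 higher, and with libraries scaled by their totals 3 lower and 15 higher, beside 5675 lower and 5268 higher of 16771 genes and 4302 lower and 6176 higher of 16269. For 4 enzymes the list holds a cytosolic and a mitochondrial form, whose counts can be set against each other within a library, free of the scaling. *Glrx* over *Glrx2* gave 1.21 and 1.25 in the DMSO libraries and 4.99 and 4.31 in the MAPK13-IN-1 libraries. *Txnrd1* over *Txnrd2* gave 7.20 and 6.87 in DMSO and 13.4 and 12.6 with MAPK13-IN-1. Both ratios were higher in each treated library than in each DMSO library. *Sod1* over *Sod2* gave 5.83 and 5.92 in DMSO and 9.41 and 8.15 with MAPK13-IN-1, and *Txn1* over *Txn2* gave 1.58 and 1.55 in DMSO and 2.07 and 1.97.

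Groups apart in 2 against 2 libraries are common here, since 83.0% of all genes tested did not overlap in CPM. As ratios of FPKM in the replicate 1 pair, *Txnrd1* over *Txnrd2* was 7.05 in DMSO and 10.0 with MAPK13-IN-1, and *Txn1* over *Txn2* was 3.61 and 3.91. *Glrx* over *Glrx2* was 3.63 in DMSO and 3.62 with MAPK13-IN-1, and *Sod1* over *Sod2* was 36.5 and 31.1. With MAPK13-IN-1 the ratio was thus higher for the reductases and thioredoxins in that pair, nearly equal for the glutaredoxins and lower for the dismutases.

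**Figure D3:**
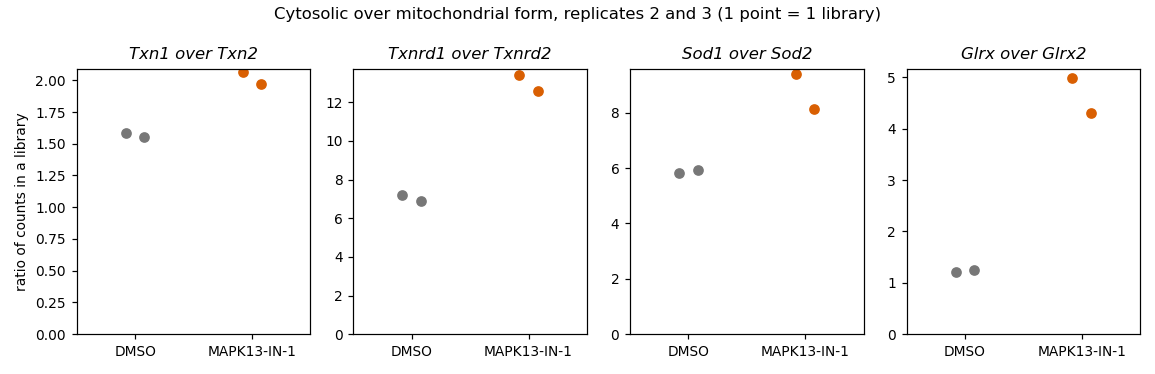
Ratio of the counts of the cytosolic form to those of the mitochondrial form within each library of replicates 2 and 3, 1 point a library, for 4 enzymes on axes that start at 0. The MAPK13-IN-1 libraries lie above the DMSO libraries in each panel, by the largest fold for *Glrx* over *Glrx2* (1.21 and 1.25 against 4.99 and 4.31).

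Across the whole list, the replicate 1 pair shared the direction of few of the rises. On the log2(FPKM + 1) scale, which understates changes of low genes, 1 of the 34 members was more than 1.5-fold lower with MAPK13-IN-1 (*Gclm*; 5.46% of all genes tested) and 3 were more than 1.5-fold higher (*Ggct*, *Gpx1* and *Gss*; 12.9%). Of the 8 members called lower in replicates 2 and 3, 5 were also lower in this pair, where 56.8% of all such genes were. Of the 11 called higher, 4 were also higher (*Gpx1*, *Prdx6*, *Cat* and *Glrx*), where 75.3% of all such genes were, and 7 were lower. The median log2 ratio was −0.065 over the members and 0.069 over all genes tested. This pair adds a value for each gene and no measure of its error.

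Levels between genes can be compared only per length, which the FPKM of DMSO replicate 1 allow. *Sod1* was the most abundant member at 441 FPKM, followed by *Txn1* at 255, *Gpx4* at 171, *Prdx1* at 111 and *Gpx1* at 92.2 FPKM. *Txnrd1* (87.9 FPKM), *Prdx2* (79.6), *Txn2* (70.7), *Gstp1* (67.3) and *Prdx3* (58.5) came next. *Nfe2l2* and *Keap1* lay in the middle of the list at 18.6 and 20.8 FPKM, and *Gstm1*, *Gpx7*, *Osgin1* and *Gpx8* were under 1 FPKM. With 1 library, neighbours in this order cannot be separated by any spread.

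Other genes of the same pathways, from lists written for this purpose, are set beside the 32.3% lower and 31.5% higher of all genes tested, shares at which lists of this size are expected to hold calls on both sides. Of 14 partners and regulators of NRF2, 4 were lower and 5 higher (median 0.11). *Nfe2l1*, a relative of NRF2 that controls proteasome genes, fell from 294 and 290.4 CPM to 109 and 102 CPM, while the small MAF partners *Mafk* (50.3 and 48.0 CPM in DMSO, 91.3 and 82.6 CPM with MAPK13-IN-1) and *Maff* (39.0 and 39.7 and 57.5 and 58.1 CPM) rose. Of 20 other NRF2 targets tested, of 24 listed, 6 were lower and 9 higher, with a median of −0.0085. Ferritin heavy chain, *Fth1*, rose by 0.90 ± 0.052 (SE) and *Pgd*, an NADPH-producing enzyme of the pentose phosphate pathway, by 0.66 ± 0.057 (SE) on the log2 scale, whereas *Taldo1*, of the same pathway, changed by −0.61 ± 0.073 (SE).

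Of 21 other glutathione genes tested, of 27 listed, 10 were lower and 5 higher (median −0.16), again beside 32.3% and 31.5% of all genes tested, as for the lists that follow. *Chac1*, which degrades glutathione, fell from 19.4 and 21.0 CPM in DMSO to 2.90 and 2.57 CPM with MAPK13-IN-1, and was at 10.1 FPKM in DMSO and 2.39 FPKM with it in the replicate 1 pair. *Gstt2*, a theta class transferase, changed by −1.91 ± 0.069 (SE) and *Slc25a39*, the carrier that brings glutathione into mitochondria, by −1.59 ± 0.081 (SE) on the log2 scale. In the replicate 1 pair *Gstt2* was higher with MAPK13-IN-1 (57.4 FPKM in DMSO and 73.9 FPKM with it), and of the 10 genes called lower in this list 3 were lower and 7 higher there. Among 19 other thioredoxin-fold and repair genes tested, 3 were lower and 10 higher (median 0.20), led by *Sesn1* (1.37), *Sesn2* (−0.48) and *Msrb1* (0.58). Of 17 genes for selenoprotein synthesis and other selenoproteins, 6 were lower and 2 higher (median −0.023), and the 3 with the smallest p, *Sephs2* (−0.92), *Selenoh* (−1.15) and *Selenow* (−0.57), were all lower. Among the members the selenoproteins are *Gpx1*, *Gpx4*, *Txnrd1* and *Txnrd2*, of which *Gpx4* and *Txnrd2* fell and *Gpx1* rose.

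Of 10 enzymes that produce NADPH or its precursor, 3 were lower and 3 higher (median −0.069), with *Nadk*, the cytosolic NAD kinase, at −0.83, *Pgd* at 0.66 and *Idh2*, the mitochondrial isocitrate dehydrogenase, at −0.54 on the log2 scale. Of 8 subunits of NADPH oxidases tested, of 10 listed, 2 were lower and 5 higher (median 0.56), with *Ncf1* at −0.82 and *Rac2* at −0.70. These oxidase subunits are also expressed in phagocytes and B cells, whose markers moved as given above, and their part was not tested. Of 3 metallothioneins, *Mt1* fell by 0.65 on the log2 scale and *Mt2* (0.087) and *Mt3* (−0.77) were not called. Without MAPK13-IN-1 replicate 2, *Mt2* was called higher at 0.10, and without MAPK13-IN-1 replicate 3 it was at 0.066 and not called. The replicate 1 pair had *Mt1* at 11.7 FPKM in DMSO and 47.7 FPKM with MAPK13-IN-1 and *Mt2* at 5.74 and 37.4 FPKM, the opposite of the counts for *Mt1*.

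The letters of the antioxidant response element core, TGACNNNGC on either strand, were searched in the RefSeq promoter table (GRCm38.p6), which runs from 250 bases before a transcript's start to 50 after it. Of the 34 members, 30 have an entry there, and *Gclc*, *Gsr*, *Prdx6* and *Hmox1* have none. In the whole window 7 of the 30 held the motif (23.3%), against 14.0% of the 27025 genes of the table, and in the 250 bases before the start 6 did, against 11.5% of genes. These 6 were *Nfe2l2*, *Gclm*, *Prdx1*, *Ggct*, *Txnrd1* and *Sod1*, and *Srxn1* held it after the start. The windows around the matches before the start are shown for the genes whose window overlaps no annotated exon, each written 5′ to 3′ on the strand of the gene with the motif in capitals, which in these windows reads on the opposite strand.
*Gclm*, chr3:122245398-122245456, forward strand: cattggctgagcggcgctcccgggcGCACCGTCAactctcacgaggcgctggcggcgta
*Prdx1*, chr4:116685441-116685499, forward strand: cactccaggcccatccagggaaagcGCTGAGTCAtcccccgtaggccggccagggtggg
*Ggct*, chr6:54993008-54993066, reverse strand: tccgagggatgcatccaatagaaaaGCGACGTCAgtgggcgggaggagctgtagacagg
*Txnrd1*, chr10:82859089-82859147, forward strand: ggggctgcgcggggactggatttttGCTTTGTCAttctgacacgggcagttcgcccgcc
*Sod1*, chr16:90220681-90220739, forward strand: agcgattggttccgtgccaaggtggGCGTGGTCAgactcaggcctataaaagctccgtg

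The motif of *Prdx1* overlaps the AP-1 letters TGANTCA, and those of the remaining 4 windows do not. Its first base lies −134 bases from the start in *Gclm*, −133 in *Prdx1*, −174 in *Ggct*, −92 in *Txnrd1* and −56 in *Sod1*. The entries of *Gclm*, *Ggct* and *Txnrd1* start inside the annotated gene, and the *Txnrd1* window is intronic. Of the 7 genes with the motif, *Gclm* and *Sod1* rose, *Srxn1* fell and *Nfe2l2*, *Prdx1*, *Ggct* and *Txnrd1* were not called. Matches were thus found in genes of every call, and a match gives the letters of the window, not the binding of a factor.

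The members lie on 14 chromosomes in RefSeq GRCm38.p6. Those that changed by more than 2-fold are *Srxn1* at chr2:152105524-152111376, *Gsto1* at chr19:47854973-47864790, *Gpx4* at chr10:80047166-80056439, *Osgin1* at chr8:119425882-119446257, *Cat* at chr2:103453904-103485153 and *Glrx* at chr13:75839885-75850151. Another annotated gene overlaps some of the members, and since the counts of replicates 2 and 3 are not stated to use strand, reads of such neighbours cannot be told apart there. This holds for *Osgin1* (with *Gm32006*), *Glrx* (*Gm41005*), *Gclm* (*Gm46822*, *Gm6061*), *Gsr* (*Gm17803*, *Gm24727*) and *Prdx5* (*Trmt112*) among the genes called, and for *Gss*, *Gpx7*, *Gpx8*, *Txnrd1*, *Prdx1* and *Mgst2* among the rest. Named copies make the split of reads uncertain for *Gpx4*, *Prdx1*, *Prdx2* and *Prdx6*, which have annotated pseudogenes or, for *Prdx6*, the close relative *Prdx6b*, and for *Gstp1* and *Gstm1*, which have close paralogs.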

How the data were processed

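Replicates 2 and 3 of each group were analysed from raw counts per gene, deposited by the authors without normalization. Per the labels' processing notes, fastp 0.21.0, HISAT2 2.1.0, StringTie 2.1.5 and DESeq2 1.30.1 were used with build mm10, in roles not given in the sources used here. For the replicate 1 pair the authors deposited values read here as FPKM, a unit inferred from the values, and the notes list FastQC and HISAT2. The members and gene lists were chosen with earlier results of these data known. In R 4.3.3, edgeR 4.0.16 kept genes by filterByExpr (minimum count 10, minimum total 15), scaled libraries by TMM and compared MAPK13-IN-1 with DMSO by its quasi-likelihood test with Benjamini-Hochberg adjustment over all genes kept and no covariate. The script was tested on simulated data. The SE is the log2 fold change divided by the square root of F. Ratios of the replicate 1 pair used a pseudocount of 1.

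By rule, all members are accounted for. Values per library are given for the regulators, the main enzymes and the members with the 6 largest rises and the 6 largest falls. Of each further list at most the 3 genes with the smallest p are named, plus the marker with the highest mean CPM, and results that need some genes are not reported here. The lists covered NRF2 partners, other NRF2 targets, other glutathione, thioredoxin-fold, selenoprotein, NADPH, NADPH oxidase and metallothionein genes, and markers of 9 cell types. The alternatives were RLE, upper-quartile and library-total scaling, other filters on low counts, a replicate block, a Wald test by DESeq2 1.42.0, leaving out each of the 4 libraries and, for FPKM, a pseudocount of 0.1 or at least 1 FPKM in both libraries. A count of 3 in a library, the limit that a count of 0 allows for counting error only, equals 0.0845 to 0.116 CPM. The chi-square of replicate counts per gene had a median of 1.02 in DMSO and 2.16 with MAPK13-IN-1, and a mean of 3.08 and 9.60, so replicates were not treated as copies.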

Additional observations from a re-analysis of the deposited data

How the results depend on the processing

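Counts of members called in each direction, and of those changed more than 2-fold, stayed within 1.5 times their values in all 11 alternatives to the fit, with 6 to 10 members lower and 9 to 16 higher. The median log2 fold change of the members, 0.075, was 0.20 with libraries scaled by their totals and 0.16 with upper-quartile scaling, where the median of all genes was 0.14 and 0.092 in place of 0.012. It was 0.12 with at least 10 counts in every library, and 0.042 to 0.13 with single libraries left out. In the replicate 1 pair the counts past 1.5-fold stayed within 1.5 times under both alternatives, while the median log2 ratio, −0.065, was −0.074 with a pseudocount of 0.1 and −0.11 when genes under 1 FPKM in either library were left out. Of 363 values of single members under the alternatives, 337 kept their side of the threshold, 15 were newly called, 11 lost their call and 0 reversed a called direction, while 18 values of 7 uncalled members changed sign. Where 1 library was left out, a group of 1 was assumed to vary like the other group. With the replicate block, a paired fit by replicate number, 8 members were lower and 11 higher with a median of 0.075, as without it, and it changed no other call of a member. The numbers do not pair the libraries by design, and the deviations of same-numbered libraries correlated at −0.0064 across genes. Of the values of other listed genes named and tested, 356 kept their side of the threshold, 5 (*Mt2* and *Mt3*) were newly called and 1 (*Mpo*, with DESeq2) lost its call. Genes with few counts, such as *Gpx7* and *Nqo1*, limit what can be said of small changes, and *Gpx8* was too low to test except with no filter.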
